A study of Homo sapiens with 6 samples.

Results

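The genes that encode histone lysine methyltransferases and demethylases were followed after ionizing radiation (IR) in U-2 OS, a line of human osteosarcoma cells. The set was defined by name. It holds the protein-coding genes whose symbol begins with KMT, KDM or SETD followed by a number or letter, together with EZH1, EZH2, NSD1, NSD2, NSD3, DOT1L, EHMT1, EHMT2, SUV39H1, SUV39H2, SETDB1 and SETDB2. This gave 49 of the 21447 genes for which reads were summed. Bulk RNA sequencing was done on 3 libraries of untreated, unsynchronized cells and 3 libraries of cells that had received 4 Gy of IR and were collected 24 h later. The labels name no genetic modification, and all libraries come from the same line, grown in the same medium. The study calls the triplicates independent samples but does not say whether they came from separate cultures, so p-values measure only the spread between these libraries.

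Histone lysine methylation is written by methyltransferases, most of which carry a catalytic SET domain, and is removed by demethylases of the LSD family, which use flavin, or of the JmjC family, which use iron and 2-oxoglutarate. The meaning of the mark depends on the residue. Methylation of histone H3 at lysine 4, 36 and 79 is found at active genes, that at lysine 9 and 27 at silent chromatin, and methylation of histone H4 at lysine 20 is tied to the cell cycle and, through binding of 53BP1, to the response to DNA double-strand breaks.

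Estimated counts per library were between 18573309 and 22953834 in 5 libraries and 45308792 in IR replicate 3, so that counting error is smallest in IR replicate 3. Of the osteoblast lineage markers, COL1A1 (2683 to 3509 CPM), SPARC (1609 to 1694 CPM) and VIM (1465 to 1793 CPM) were abundant in every library, and SPP1 (105 to 131 CPM) and RUNX2 (11.3 to 16.1 CPM) were present. COL1A2 (0.977 to 2.14 CPM), ALPL (1.70 to 4.96 CPM) and the late markers BGLAP and IBSP (below 0.25 CPM) were near absent. Within this list ALPL rose (1.09) and RUNX2 fell by 0.36 on the log2 scale. CPM is the count of a gene relative to the scaled library total. The 11 markers of other cell types summed to between 16.3 and 19.1 CPM, 3 of them were at 0, and CDH1 was called higher (0.61, from 2.07 to 3.19 CPM). EPCAM, an epithelial marker, had the highest level among them, at 8.55 to 10.6 CPM, not far below RUNX2. The 4 p53 response genes examined were all higher after IR, with log2 fold changes of 1.52 for CDKN1A, which encodes the cell cycle inhibitor p21, and 1.27 for FAS, a death receptor gene. The study names the same 4 genes among those most strongly induced in its bulk RNA sequencing, so their rise is not an independent check.

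Of the 49 genes, 46 had enough reads to be tested. KDM4E and KDM4F, close relatives of KDM4D, were listed at 0 in every library, and KDM5D lies on the Y chromosome, so no level is given for it. After IR, 20 of the 46 genes were lower (43.5%) and 1 was higher (2.17%), whereas of all 14323 genes tested 14.5% were lower and 15.5% were higher, 30.1% in either direction (quasi-likelihood test of edgeR, Benjamini–Hochberg adjusted p under 0.05). The median log2 fold change of the 46 genes was −0.17, beside 0.01 for all genes. It was −0.12, −0.21 and −0.19 in IR replicates 1, 2 and 3 taken singly, beside 0.006, 0.015 and 0.012 for all genes. In these libraries 33, 32 and 34 of the 46 genes lay below the untreated mean. The same untreated mean served each time, and the share of all genes below it was not computed. With an offset for the effective length of the transcripts in each library, 9 genes were lower and 0 higher, beside 6.11% and 5.82% of all genes, and the median of the set was −0.23. In bulk samples, fewer cells of a type and less RNA per cell cannot be told apart.

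The changes were moderate. Only 6 genes had a called log2 fold change below −0.5 (13% of the 46, beside 3.74% of all genes), namely KMT2A, KMT2C, KMT2D, KDM4D, KDM3B and SETD2, and KDM4B alone had one above 0.5 (5.98% of all genes). The libraries of both groups did not overlap for 27 of the 46 genes (58.7%, beside 47.1% of all genes), among them 24 that were lower after IR (52.2%, beside 23.3% of all genes). All 21 called genes were among the 27. For each of these the exact two-sided permutation test over libraries gave p = 0.1, the smallest value that 3 libraries against 3 allow. Of the 25 genes that were not called, 14 had a negative and 11 a positive log2 fold change, from −0.27 for KDM6A to 0.25 for KMT5C.

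**Figure D1:**
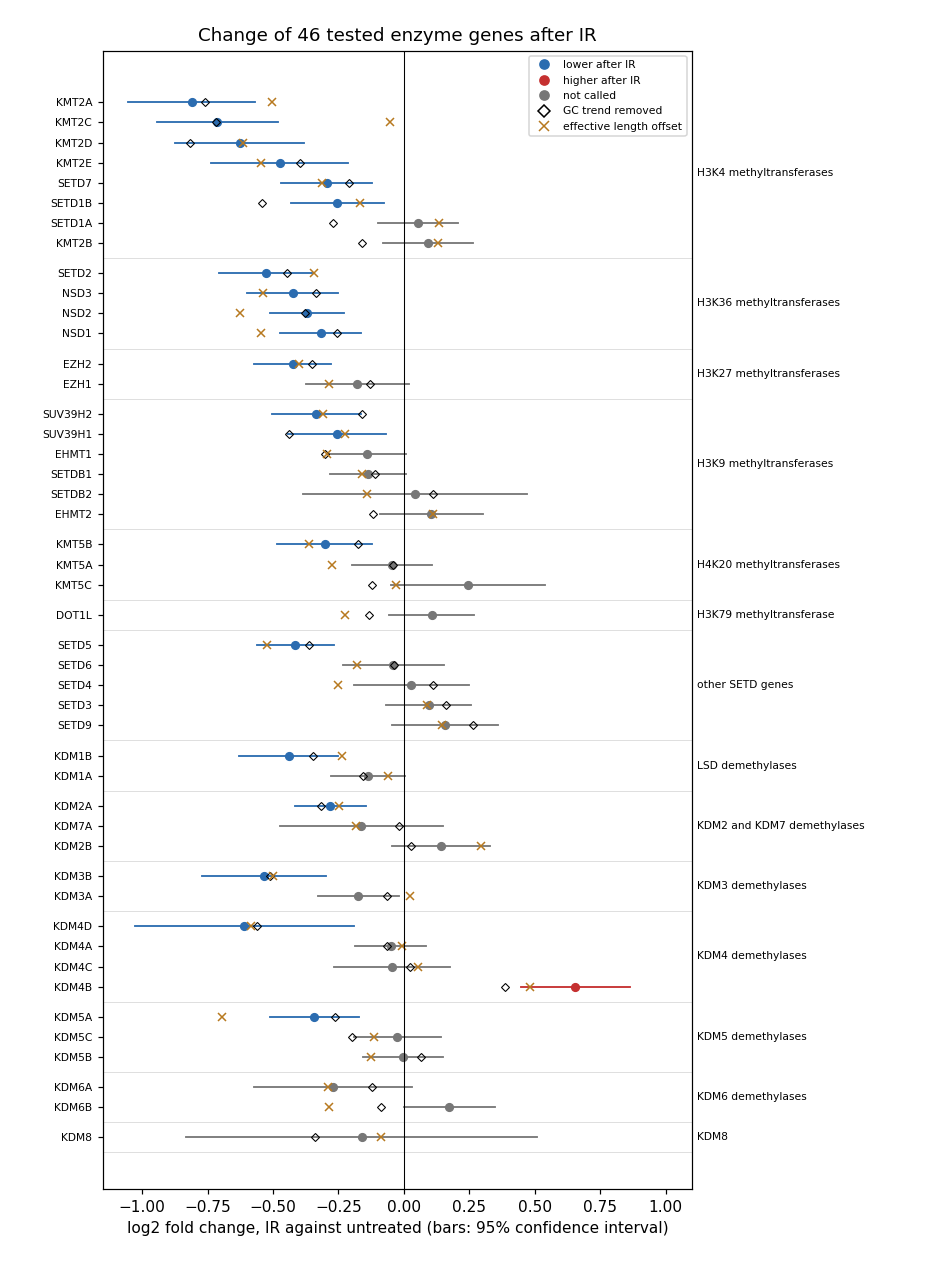
Log2 fold change of IR against untreated (horizontal axis) for the 46 tested genes, grouped by role. Filled circles and bars give the estimate with its 95% confidence interval (blue, lower; red, higher; grey, not called), open diamonds the estimate after removal of the trend with GC content, and crosses the estimate with an effective length offset. The lowest estimate is that of KMT2A at −0.81 and the highest that of KDM4B at 0.65.

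The genes of the enzymes that methylate lysine 4 of histone H3 held the largest falls. Among them are the catalytic subunits of COMPASS complexes: KMT2A and KMT2B, KMT2C and KMT2D, which act at enhancers, and SETD1A and SETD1B, which provide most trimethylation at promoters. Of the 8 genes in this group, in which KMT2E is counted by its family, 6 were lower and none was higher, beside 14.5% and 15.5% of all genes. KMT2A, also known as MLL1 and rearranged in leukaemia (ENSG00000118058, GRCh38 chr11:118436456-118526832, plus strand), had 155, 166 and 138 CPM in untreated cells and 102, 85.2 and 75.7 CPM after IR (values in each group given in the order of replicates 1, 2 and 3). Every IR library was below every untreated library, and the log2 fold change was −0.81 ± 0.11 (SE, n = 3 against 3 libraries, edgeR adjusted p = 0.00106).

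KMT2C (ENSG00000055609, chr7:152134922-152436644, minus strand) was at 102, 116 and 102 CPM in untreated cells and at 76.4, 61.5 and 58.0 CPM after IR. It fell by 0.71 on the log2 scale, with an SE of 0.10 (edgeR adjusted p = 0.00135), again without overlap, whereas the value was −0.05 and not called when the effective transcript length was allowed for. KMT2D (ENSG00000167548, chr12:49018975-49060794, minus strand) was among the most abundantly counted genes of the set, at 235, 265 and 189 CPM in untreated cells and 160, 146 and 140 CPM after IR. Its log2 fold change was −0.63 ± 0.11 (edgeR adjusted p = 0.00319), and the untreated libraries were more spread than those after IR. The remaining falls in this group were smaller: −0.48 for KMT2E, a SET domain gene with little or no catalytic activity of its own, −0.30 for SETD7, a monomethyltransferase that also acts on other proteins, and −0.25 for SETD1B. SETD7 and SETD1B kept their calls in 12 and 10 of the 16 alternative analyses. KMT2B and SETD1A were not called, with log2 fold changes of 0.09 (95% confidence interval −0.08 to 0.26) and 0.05 (−0.10 to 0.21).

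All 4 genes of the group that methylates lysine 36 of histone H3 were lower after IR, beside 14.5% of all genes. SETD2, the enzyme that places trimethylation along transcribed genes (ENSG00000181555, chr3:47016428-47164113, minus strand), had 146, 152 and 139 CPM in untreated cells and 110, 103 and 91.1 CPM after IR. The groups were well separated, and the log2 fold change was −0.53 ± 0.08 (edgeR adjusted p = 0.00159), with the call lost under the length offset. The genes of the dimethylating enzymes NSD1, NSD2 and NSD3 fell by 0.32, 0.37 and 0.43 on the log2 scale (edgeR adjusted p = 0.00815, 0.00274 and 0.00369). NSD2, with 262, 277 and 270 CPM in untreated cells and 220, 200 and 205 CPM after IR, was the most abundant gene of the set per length.

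EZH2 and EZH1 are alternative catalytic subunits of Polycomb repressive complex 2, which methylates lysine 27 of histone H3, and EZH2 is the form typical of dividing cells. EZH2 (ENSG00000106462, chr7:148807257-148884321, minus strand) had 58.9, 56.9 and 57.3 CPM in untreated cells and 42.5, 45.1 and 41.5 CPM after IR. The libraries within each group were close together, and EZH2 fell by 0.42 on the log2 scale with an SE of 0.07 (edgeR adjusted p = 0.00183), to 74.5% of its untreated level. EZH1 had 30.4, 31.1 and 25.9 CPM in untreated cells and 26.9, 25.3 and 25.2 CPM after IR. These values overlapped, and its log2 fold change of −0.18 (95% confidence interval −0.37 to 0.02) was not called (edgeR adjusted p = 0.151).

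Among the enzymes of lysine 9 of histone H3, which build heterochromatin, the genes of the trimethylases SUV39H1 and SUV39H2 were lower. SUV39H1 (ENSG00000101945, chrX:48695554-48709016, plus strand) had 50.9, 50.6 and 44.5 CPM in untreated cells and 37.4, 40.8 and 43.8 CPM after IR. The highest IR library came within 1 CPM of the lowest untreated one, and the log2 fold change of −0.25 ± 0.08 passed narrowly (edgeR adjusted p = 0.0443) and kept its call in 8 of the 16 alternative analyses. SUV39H2 fell by 0.33 on the log2 scale (edgeR adjusted p = 0.0102). The dimethylases EHMT1 (−0.14) and EHMT2 (0.10), also known as GLP and G9a, and SETDB1 (−0.14) and SETDB2 (0.04) were not called.

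Methylation of lysine 20 of histone H4 begins with KMT5A, the monomethylase that is degraded in S phase, and is extended by KMT5B and KMT5C. KMT5A, at 59.0, 59.9 and 57.6 CPM in untreated cells and 58.2, 59.5 and 53.4 CPM after IR, was not called (log2 fold change −0.05, 95% confidence interval −0.20 to 0.11). KMT5B had 51.4, 48.9 and 55.8 CPM in untreated cells and 44.3, 43.9 and 38.7 CPM after IR, without overlap, and fell by 0.30 on the log2 scale with an SE of 0.08 (edgeR adjusted p = 0.0196, called in 11 of 16 alternatives). KMT5C, less abundant at 9.01, 10.1 and 8.21 CPM in untreated cells and 9.78, 10.2 and 12.2 CPM after IR, overlapped between groups and was not called (log2 fold change 0.25, −0.05 to 0.54).

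DOT1L, the methyltransferase of lysine 79 of histone H3 and the only methyltransferase of the set without a SET domain, had 64.1, 66.4 and 62.1 CPM in untreated cells and 68.5, 64.2 and 74.3 CPM after IR. The groups overlapped, and the log2 fold change of 0.11 (95% confidence interval −0.06 to 0.27) was not called (edgeR adjusted p = 0.292). Of the 5 other SETD genes, SETD5 was lower. It had 209, 226 and 211 CPM in untreated cells and 170, 160 and 154 CPM after IR, and its log2 fold change was −0.42 ± 0.07 (edgeR adjusted p = 0.00199). The log2 fold changes of SETD3, an actin histidine methyltransferase, and of SETD4, SETD6 and SETD9 lay between −0.04 and 0.16 and were not called.

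Of the 17 demethylase genes tested, 5 were lower and 1 was higher. Of the 24 histone methyltransferase genes, KMT2E among them, 14 were lower and none higher, and of all genes 14.5% were lower and 15.5% higher. The medians of the demethylase and methyltransferase genes were −0.16 and −0.28. Whether these shares differ was not tested. KDM4B, a JmjC demethylase of lysine 9 and 36 of histone H3 (ENSG00000127663, chr19:4969113-5153598, plus strand), was the only gene of the set that rose. It had 22.5, 23.3 and 23.6 CPM in untreated cells and 31.9, 36.9 and 40.2 CPM after IR, which is 157% of the untreated level. All IR libraries lay above the narrow range of the untreated ones, and the log2 fold change was 0.65 ± 0.09 (edgeR adjusted p = 0.00129). The call was lost under the length offset (0.48, edgeR adjusted p = 0.0725).

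No other gene of its family was higher. KDM4A, at 116, 119 and 115 CPM in untreated cells and 112, 116 and 110 CPM after IR, was not called (log2 fold change −0.05, 95% confidence interval −0.19 to 0.08), nor was KDM4C (−0.05). KDM4D, the least abundant tested gene of the set per length, had 3.51, 3.25 and 3.57 CPM in untreated cells and 2.13, 2.07 and 2.50 CPM after IR. It rested on 38 to 113 counts a library, and its log2 fold change of −0.61 ± 0.19 was called (edgeR adjusted p = 0.0346). KDM4D kept its call in 6 of the 16 alternative analyses.

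The KDM3 and LSD families, which act on mono- and dimethylated lysine, each held a fall. KDM3B, a demethylase of lysine 9 of histone H3 (ENSG00000120733, chr5:138352685-138437028, plus strand), had 70.9, 73.6 and 62.3 CPM in untreated cells and 54.2, 48.3 and 40.9 CPM after IR. It fell by 0.53 on the log2 scale with an SE of 0.11 (edgeR adjusted p = 0.00527), whereas KDM3A (−0.17) was not called. Of the LSD demethylases, KDM1B fell by 0.44 (edgeR adjusted p = 0.00481), from 18.8, 18.2 and 19.8 CPM to 14.3, 13.3 and 14.2 CPM, and KDM1A, the founding member, was not called at −0.14.

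KDM2A, a CpG-island binding demethylase of lysine 36 of histone H3, fell by 0.28, and KDM5A, a demethylase of lysine 4 of histone H3 that binds the retinoblastoma protein, fell by 0.34 on the log2 scale (edgeR adjusted p = 0.00824 and 0.00886). KDM2B (0.14), KDM7A (−0.16), KDM5B (0.00) and KDM5C (−0.03) were not called. Neither demethylase of lysine 27 of histone H3 was called, with log2 fold changes of −0.27 for KDM6A, also known as UTX, and 0.17 for KDM6B. KDM8, at 1.94 to 4.06 CPM, was too variable for a statement, with a 95% confidence interval of −0.83 to 0.51.

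The level per length (TPM, the authors' values scaled for effective transcript length and library total) differed widely within the set. The effective length exceeds the transcript length for 24.2% to 29.1% of transcripts in a library, and any bias correction behind it is not given in the sources used here, so TPM levels and the length offset may reflect more than length. NSD2 (113 ± 4.6 TPM, SD, n = 3 untreated libraries), KMT5A (85.1 ± 6.8), SETD5 (63.9 ± 5.7) and SUV39H2 (59.3 ± 2.5) were the most abundant. NSD2 and KMT5A were apart by more than their spread, whereas SETD5 and SUV39H2 were not. At the other end stood KDM7A (2.27 ± 0.23 TPM), SETDB2 (2.01 ± 0.23), KDM8 (1.70 ± 0.16) and KDM4D (1.46 ± 0.096). Neighbours in this low range differed by less than the sum of their SDs. KMT2A, KMT2C and KMT2D were of middle rank per length, between 21.6 and 30.2 TPM, although their long transcripts collected many reads.

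The ratio of related genes within a library does not depend on the scaling of that library. Of 16 such pairs, 12 had ratios that did not overlap between the groups, each with an exact two-sided permutation p = 0.1, the smallest possible, and 0.133 after Benjamini–Hochberg adjustment over the 16 pairs, so that none passed 0.05. A share for pairs of all genes was not computed, and since 47.1% of single genes did not overlap, the count itself is a description. The largest shift was that of KMT2A over KMT2B. The log2 ratio was 1.08, 1.07 and 1.06 in the untreated libraries and 0.41, 0.18 and −0.09 after IR. KMT2A thus went from a clear excess of counts over KMT2B to near parity in IR replicate 3. The mean difference was −0.90, which became −0.60 with the GC trend removed and −0.64 with the length offset.

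KDM4A over KDM4B moved by −0.68, from log2 ratios of 2.34, 2.33 and 2.26 to 1.80, 1.64 and 1.44, and by −0.44 with the GC trend removed. Smaller shifts in the same direction were found for KDM2A over KDM2B (−0.41), KDM5A over KDM5B (−0.34), EZH2 over EZH1 (−0.25) and NSD2 over NSD1 (−0.05). The ratios KDM3A over KDM3B (0.36), SETD1A over SETD1B (0.30) and KDM1A over KDM1B (0.29) were higher after IR. Of these 7 shifts, those that moved by over 1.5 times were EZH2 over EZH1 (−0.13), KDM5A over KDM5B (−0.59), NSD2 over NSD1 (−0.11) and KDM1A over KDM1B (0.17) with the length offset, and NSD2 over NSD1 (−0.12) and KDM1A over KDM1B (0.18) with the GC trend removed. For KMT5B over KMT5C (−0.52), KDM6A over KDM6B (−0.45) and EHMT1 over EHMT2 (−0.25) the libraries were apart as well, but with the GC trend removed these ratios overlapped, at differences of −0.04, −0.04 and −0.19. With the length offset their differences were −0.31, −0.09 and −0.41. The ratios SUV39H1 over SUV39H2, SETDB1 over SETDB2, KMT2C over KMT2D and NSD2 over NSD3 overlapped. With the GC trend removed, SUV39H1 over SUV39H2 changed from 0.08 to −0.27 and no longer overlapped, and 10 pairs in all were apart.

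**Figure D2:**
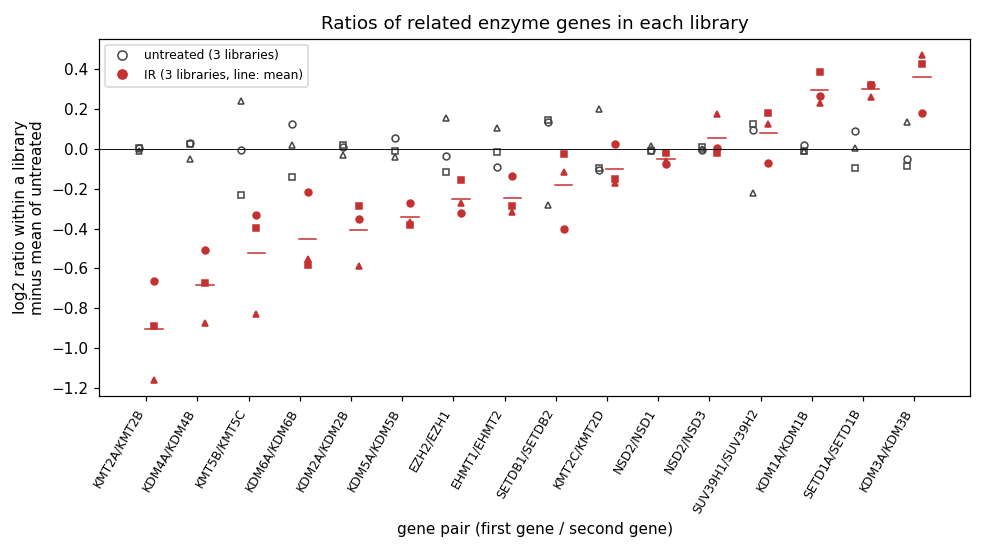
Log2 ratio of CPM of related genes within each library, minus the mean ratio of the untreated libraries (vertical axis), for 16 pairs. Open grey symbols are untreated libraries, filled red symbols IR libraries and red lines their means. The shift runs from −0.90 for KMT2A/KMT2B to 0.36 for KDM3A/KDM3B.

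Across all genes, those poor in G and C tended to be lower after IR, and the set was read against this trend. The median GC content of the transcripts was 48.6% both for the 46 genes and for all genes tested. Below 45% GC, 9 of 15 genes of the set were lower, beside 26.7% of all genes in that range. Between 45% and 55%, 8 of 17 were lower, beside 12.3% of all genes. Above 55%, 3 of 14 were lower (KMT2D, SUV39H1 and SETD1B) and 1 was higher (KDM4B), beside 2.39% lower and 34.0% higher of all genes there.

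With the GC trend of each library removed, 20 genes were lower and 1 was higher, beside 13.1% and 11.1% of all genes. These were not the same 20. KDM4D, KMT5B and SUV39H2 lost their calls (log2 fold changes −0.56, −0.18 and −0.16), and EHMT1 (−0.30), KDM5C (−0.20) and SETD1A (−0.27) gained one, the latter with a change of sign. KMT2D (−0.82), SETD1B (−0.54) and SUV39H1 (−0.44) became more negative. KDM4B was still higher, but by 0.38 rather than 0.65.

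An offset for length changed the counts more than removal of the GC trend. The 20 lower genes had a median transcript length of 4020 bases and a median genomic length of 87.4 kb, beside 3040 bases and 49.1 kb for the 25 genes not called and 2144 bases and 34.4 kb for all genes. An offset for the effective transcript length in each library, which follows how kallisto shared the reads among isoforms, left 9 genes lower and none higher, beside 6.11% lower and 5.82% higher of all genes. The 9 were KMT2A (−0.50), KMT2D (−0.61), NSD1, NSD2 (−0.63), NSD3, EZH2 (−0.40), SETD5, KDM3B (−0.50) and KDM5A. These 9 were called in each of the 16 alternative analyses, and 14 genes in each but this one. KMT2C, at −0.05, and SETD2, at −0.34, lost their calls here, as did KDM4B and 9 further genes. For several of these the estimate was as large as before but less certain, as for KMT2E (−0.55, SE 0.17), KDM4D (−0.58, SE 0.24), KMT5B (−0.36, SE 0.24), SETD7 (−0.31, SE 0.11) and SUV39H2 (−0.31, SE 0.11). With mean transcript weights, an offset chosen after seeing the data, KMT2C (−0.74), SETD2 (−0.57) and KDM4B (0.70) were called.

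Some symbols share sequence with other genes, so their counts are less certain. The exons of KMT2A, KMT2D, KMT2E and KDM4A overlap those of a read-through or other coding gene on the same strand. The gene overlapping KMT2A was at 3.70 to 6.21 CPM and that overlapping KMT2D at 11.8 to 17.3 CPM, well below KMT2A and KMT2D themselves. Near-identical partial copies of KMT2C lie elsewhere in the genome, and KDM5C resembles its Y-linked relative. KMT2E and 8 further genes, KDM5A and SUV39H2 among them, share exonic sequence with a coding gene on the opposite strand, and the strand setting of the counting is not given in the sources used here.

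Transcript usage asks whether the isoforms of a gene changed by unlike amounts. Of 41 genes tested, 3 were called (7.32%, beside 2.67% of all genes; Simes p-values of edgeR's diffSpliceDGE, Benjamini–Hochberg adjusted). The KDM2A transcript of lowest p, though not of highest level, was KDM2A-202 (ENST00000398645, 6511 bases, 21 exons). It had 7.61, 11 and 14.3 CPM in untreated cells and was listed at 0 in all IR libraries (adjusted p = 2.12e-06 for the gene). The other KDM2A transcripts together had 138, 140 and 124 CPM in untreated cells and 121, 123 and 123 CPM after IR. KDM2A-202 thus held 7.59% of the gene's counts in untreated cells.

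NSD2-202 (ENST00000353275), annotated as a target of nonsense-mediated decay, had no count in any untreated library and 12.3, 48.3 and 0.971 CPM after IR (adjusted p = 6.45e-06). This uneven rise rested mostly on IR replicate 2, where the other NSD2 transcripts were also lowest, at 183 CPM. SETD5-224, a short transcript without a coding sequence, had 1.03, 0.944 and 2.15 CPM in untreated cells and was listed at 0 after IR (adjusted p = 0.0158), and its gene lost the call in 5 of the 6 analyses that left out a library. With a filter of 10 counts in every library these transcripts dropped out and KMT2A alone was called. Exact zeros of this kind can be failed estimates, and on data simulated with the spread that transcripts show, most genes that this test called had not been changed, so the calls are a description.

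Promoter sequences from RefSeq (GRCh38.p14) were found for 45 of the 49 genes, and the 250 bases before the start nearest to the annotated 5′ end were searched on both strands. That start still lay far from the annotated end for KMT2E (73262 bases), SETD7 (50480), KDM4C (37110) and SETD4 (18863). DOT1L, SETD1B, NSD3 and KDM4E had no entry. The ratio of observed to expected CpG was over 0.6 in 42 of the 45, beside 47.5% of all 35116 promoters, with medians of 0.922 and 0.558. The letters TTTGGCGC, TTTGCCGC, TTTCGCGC or TTTCCCGC, which fit binding sites of E2F factors, occurred in EZH1, KDM1B and NSD2 (2.79% of all promoters), and TTTGAA, the cell cycle homology region, in NSD2 and KDM4F (13.3%). CCAAT, the letters bound by NF-Y, occurred in 15 of the 45 (32% of all promoters), and TATAAA in none (10.7%). The called genes with E2F letters and the genes with the largest fall and rise are shown, 5′ to 3′ on the plus strand, without bases inside the annotated gene. Capitals mark E2F, TTTGAA or CCAAT letters in either direction.
KDM1B, chr6:18155172-18155328: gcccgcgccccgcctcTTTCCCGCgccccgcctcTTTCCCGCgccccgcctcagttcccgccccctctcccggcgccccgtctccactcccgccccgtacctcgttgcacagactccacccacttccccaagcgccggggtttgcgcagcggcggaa
NSD2, chr4:1871143-1871392: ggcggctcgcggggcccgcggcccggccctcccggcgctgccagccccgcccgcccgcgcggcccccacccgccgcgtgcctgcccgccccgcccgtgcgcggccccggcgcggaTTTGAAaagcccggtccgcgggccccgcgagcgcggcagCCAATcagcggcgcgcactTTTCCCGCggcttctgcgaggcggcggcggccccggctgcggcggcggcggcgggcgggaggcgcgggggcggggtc
KMT2A, chr11:118436242-118436455: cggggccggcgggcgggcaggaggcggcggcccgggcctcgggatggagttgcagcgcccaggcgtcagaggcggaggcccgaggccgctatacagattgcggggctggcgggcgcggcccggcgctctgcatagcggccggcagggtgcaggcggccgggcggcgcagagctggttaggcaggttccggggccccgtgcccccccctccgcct
KDM4B, chr19:4968863-4969112: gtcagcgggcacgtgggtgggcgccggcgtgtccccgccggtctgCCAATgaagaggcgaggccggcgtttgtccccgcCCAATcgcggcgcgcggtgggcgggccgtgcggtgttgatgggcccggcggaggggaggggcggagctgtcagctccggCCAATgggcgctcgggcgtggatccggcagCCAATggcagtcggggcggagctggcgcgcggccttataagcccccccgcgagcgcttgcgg
KDM4B carried 4 CCAAT matches within 205 bases of its start, KDM1B had 2 copies of TTTCCCGC, NSD2 had 1 match of each kind, and KMT2A had none. Of the 18 lower genes with a promoter, 5 held CCAAT, beside 9 of the 24 that were not called. A match is a description of these letters and not evidence of a bound factor.

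Subunits and partners of these enzymes, in 8 lists with 97 genes, were measured in the same libraries. Of the 90 tested, 26 were lower and 6 higher, with a median log2 fold change of −0.12, beside the 14.5% lower and 15.5% higher of all genes given above. With the GC trend removed 24 were lower and none was higher, beside 13.1% and 11.1% of all genes. A replicate block gave 18 and 2, beside 1624 and 1727 of all genes. The length offset gave 9 and 1, beside 6.11% and 5.82% of all genes. Among the COMPASS subunits, 5 of 14 were lower and none was higher, of which BOD1L1 (−0.58, edgeR adjusted p = 0.00319) and the core subunit RBBP5 (−0.37, 0.00326) had the lowest p. Of further core subunits, ASH2L (−0.28) was lower, and WDR5 (−0.04) and DPY30 (0.03) were not called. In the list of subunits and associated genes of Polycomb repressive complex 2, 4 of 12 were lower, among them LCOR (−0.76) and the core subunit SUZ12 (−0.32). PHF1 (0.26) and EZHIP (0.27) were higher. The core subunits EED (−0.01), RBBP4 (−0.20) and RBBP7 (−0.22) were not called.

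Heterochromatin protein CBX5, a reader of lysine 9 methylation, fell by 0.51 (edgeR adjusted p = 0.000645), from 315 ± 8.1 to 222 ± 8.3 CPM (SD, n = 3). In its list of 8 readers and partners, MPHOSPH8 (−0.29) was also among the 4 lower genes, and WIZ (0.27), a partner of EHMT1 and EHMT2, was higher. The corepressors RCOR3 (−0.31) and RCOR1 (−0.29) were among the 4 lower of 11 partners of LSD1, with HMG20B higher (0.26). Of 6 partners of DOT1L, AFF4 (−0.43), AFF1 (−0.36) and MLLT10 (−0.31) were lower and MLLT6 was higher (0.19). Of all genes, 14.5% were lower and 15.5% higher.

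Further genes with the same catalytic domains were measured, to be read beside 14.5% lower and 15.5% higher of all genes. Of 18 further SET domain genes tested, 4 were lower, with ASH1L, another methyltransferase of lysine 36 of histone H3, at −0.70 (edgeR adjusted p = 0.00133) and PRDM10 at −0.48, and PRDM16 was higher (0.75, from 1.25 to 2.09 CPM). Of 13 further JmjC genes, JMJD1C (−0.72, edgeR adjusted p = 0.00371) and HIF1AN (−0.26) were lower and none was higher. The lower share of the JmjC genes was thus close to that of all genes. The median log2 fold change was −0.07 for the SET domain list and −0.01 for the JmjC list. None of the 8 arginine methyltransferase genes tested was called by edgeR in either direction, and 1 of them had an unadjusted p under 0.05.

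Of 23 proliferation genes, 14 were lower and none higher, beside 14.5% and 15.5% of all genes, at a median of −0.26 on the log2 scale. The other 9, CCNB1 (−0.02) and PCNA (0.00) among them, were not called. With the GC trend removed 17 of 23 were lower (13.1% of all genes), and with the length offset 6 of 23 (6.11% of all genes). MKI67, which encodes the proliferation marker Ki-67, went from 716 ± 48 to 335 ± 62 CPM (log2 fold change −1.09), and BUB1 from 211 ± 0.18 to 149 ± 4.8 CPM (−0.50). The part of fewer dividing cells in the changes of EZH2, SUV39H1, SUV39H2, NSD2 and the others was not tested.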

How the data were processed

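RNA was sequenced from 3 untreated libraries of U-2 OS cells and 3 taken 24 h after 4 Gy of IR. The authors removed adaptors with fastp and used kallisto to assign the reads to transcripts of GENCODE release 37 (GRCh38). The deposited files give, per transcript, an estimated count that is not normalized and a TPM value that the authors scaled by effective length and library total. The methods name a total RNA kit, the labels poly(A) RNA.

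Transcript identifiers were looked up in GENCODE release 44. Those without a match (2460) held 1.54% to 1.80% of a library's counts and were not used. Per gene, estimated counts were summed, rounded, filtered by filterByExpr, scaled by TMM and tested by glmQLFTest (edgeR 4.0.16, R 4.3.3), with Benjamini–Hochberg adjustment over 14323 genes, a threshold of 0.05 and 95% confidence intervals. The biological coefficient of variation was 0.0931. CPM values are TMM-scaled, and TPM served for levels per length and as weights for transcript length and GC content. Ratios of related genes used log2 (CPM + 0.5) and an exact permutation test. Transcript usage was tested by diffSpliceDGE on genes with at least 2 transcripts. Scripts were tested on simulated counts.

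The genes, lists and tests were chosen with earlier results of these data known. All 49 genes are named. Values in every library are given for called genes with a log2 fold change over 0.5 in size, the 5 of lowest p in each direction, and EZH1, EZH2, SUV39H1, SETD2, KMT5A, KMT5B, KMT5C, DOT1L and KDM4A. NSD2 and KDM1B were added to these after their values were seen. Of each list the 2 called genes of lowest p per direction are named, and MLLT10 was added. The core subunits ASH2L, WDR5, DPY30, EED, RBBP4 and RBBP7 were also added, with their values known. Of the proliferation and p53 lists, MKI67, BUB1, CDKN1A and FAS are those 2, and CCNB1 and PCNA were added after their values were seen. Alternatives were other filters, DESeq2 size factors, the Wald test of DESeq2 (1.42.0), a likelihood ratio test, removal of the GC trend, a replicate block, an effective length offset and leaving out each library. An offset with mean transcript weights, and the GC trend removed with the block, were chosen after seeing the data. Replicates of a group differed by more than sampling noise (chi-square per gene of 3.46 to 9.22, and of 29.1 and 32.3 for the pairs with IR replicate 3, the deepest library). The file of IR replicate 3 carries a mark that could stand for a repeat, which no source explains. Counting intervals are not given, since spread between libraries is larger.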

Additional observations from a re-analysis of the deposited data

How the results depend on the processing

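DESeq2 size factors, both filters, the DESeq2 Wald test and the likelihood ratio test left 19 or 20 genes lower and 1 higher. No called gene changed direction under any of the 16 alternatives. Replicate numbers are shared between groups but did not pair the libraries (correlations of deviations −0.0175, 0.00720 and −0.0519). A replicate block gave 17 lower and 1 higher, beside 1624 lower and 1727 higher of all genes, with KDM4D, SETD1B and SUV39H1 lost. It left 2 partner genes higher and 2 genes of the set with changed transcript usage, beside 149 of all genes. With the effective length offset, 9 genes of the set were lower and 0 higher (median −0.23), 875 of all genes were lower and 833 higher, 9 partner genes lower and 1 higher, and 6 proliferation genes lower. With mean transcript weights, chosen after seeing the data, 18 were lower and 1 higher, beside 1888 lower and 1780 higher of all genes. With the GC trend removed, 0 partner genes were higher, beside 1583 of all genes. With the GC trend removed and a block, also chosen after seeing the data, 1391 of all genes were higher and 0 partner genes. The filter of 10 counts left 1 gene of the set with changed transcript usage, beside 65 of all genes. The causes were not tested.

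Leaving out each library gave 15 to 20 lower genes and 1 higher, 1244 to 2284 of all genes lower and 1295 to 2114 higher. It gave 11 to 28 partner genes lower and 1 to 5 higher, and 9 to 17 proliferation genes lower. Changed transcript usage was called for 2 to 4 genes of the set, beside 228 to 443 of all genes. Without untreated replicate 1 or 2 the fewest genes were called. KDM4D was called in 1 of these 6 analyses, SUV39H1 in 2, SETD1B and SETD7 in 3, KMT5B in 4 and KMT2E in 5.

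Genes whose sign changed were not called as reported. With the GC trend removed, the log2 fold changes were −0.13 for DOT1L, −0.12 for EHMT2, 0.022 for KDM4C, 0.066 for KDM5B, −0.087 for KDM6B, −0.16 for KMT2B, −0.12 for KMT5C and −0.27 for SETD1A. With the block added to it they were −0.14 for DOT1L, −0.12 for EHMT2, 0.024 for KDM4C, 0.065 for KDM5B, −0.089 for KDM6B, −0.16 for KMT2B, −0.12 for KMT5C and −0.27 for SETD1A. With the effective length offset they were −0.22 for DOT1L, 0.025 for KDM3A, 0.052 for KDM4C, −0.29 for KDM6B, −0.031 for KMT5C, −0.25 for SETD4 and −0.14 for SETDB2, and with mean weights 0.0053 for KDM5C. Leaving out a library gave −0.082 to 0.0042 for KDM4C, −0.061 to 0.021 for KDM5B, −0.095 to 0.012 for KDM5C, −0.48 to 0.15 for KDM8, −0.020 to 0.068 for SETD4 and −0.12 to 0.21 for SETDB2. Depth limits KDM4D, KDM8 and SETDB2, which had as few as 38, 40 and 76 counts in a library.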
